A study of Mus musculus with 12 samples.

Results

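Rab proteins are small GTPases that sit on the membranes of single organelles and direct the budding, movement, tethering and fusion of vesicles. The 59 genes described here are the protein-coding genes of the deposited expression table whose symbol is Rab followed by a number and at most 1 letter, out of 55806 genes in all and 21883 protein-coding genes. They were chosen by name and not by any measured value. RNA was sequenced from mouse osteoclasts, the multinucleated cells that resorb bone, which were made from bone marrow monocytes of mice aged 8 to 12 weeks by culture with the cytokines M-CSF and RANKL until day 4. Control and Per2 knockout cultures of each sex formed 4 groups, with 3 libraries each, 1 from each of 3 labelled batches. Per2 belongs to the repressors of the circadian clock. The title of the series names PER1, and the sample labels, which name Per2, were followed. Not given in the sources used here are the strain, the deleted exons, the cells in which Per2 was deleted and any driver of a deletion, which limits what the knockout groups can stand for. The replicates are called biological, without a statement that each came from a separate mouse, so p-values measure the spread between libraries.

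A Rab protein switches between a GDP-bound form, which is held soluble by GDI, and a GTP-bound form on the membrane, which recruits effectors such as tethers and motor adaptors. Guanine nucleotide exchange factors (GEFs) switch it on, GTPase-activating proteins (GAPs) switch it off, and a lipid tail added by geranylgeranyl transferase anchors it. Osteoclasts depend on this traffic, because they fuse lysosome-like vesicles with the ruffled border, the folded membrane facing bone, to release acid and proteases. Rab7, the Rab of late endosomes and lysosomes, and Rab3d, a Rab of secretory vesicles, are known for a part in that secretion in mouse osteoclasts.

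Values are FPKM, reads scaled by gene length and by a library total, as the authors deposited them. Assigned reads numbered 13888150 to 17762190 per library, with male knockout replicate 2 higher at 41145397. Per2 FPKM was 0.579, 0.721 and 0.701 (male control), 0.466, 0.39 and 0.23 (male knockout), 0.331, 0.53 and 0.368 (female control) and 0.258, 0.204 and 0.589 (female knockout). The male groups did not overlap (exact permutation p = 0.1, which is as low as 3 against 3 libraries can go). The female groups did (exact permutation p = 0.6), and its highest value, against the label, was in the library labelled female knockout replicate 3. Whether the reads lie in the deleted exons was not tested. All 15 listed osteoclast markers were above 1 FPKM in at least 1 library, and their summed FPKM was 9560 to 11000 (male control), 9800 to 10800 (male knockout), 9870 to 11000 (female control) and 12200 to 14800 (female knockout). The interferon-stimulated genes on the list moved more, with a summed FPKM of 5390 to 6190 and 5780 to 6170 in the male groups, and 229 to 296 (female control) and 2100 to 2890 (female knockout) in the others. Differences between groups below can come from fewer cells of a type or from less RNA per cell, which cannot be told apart in bulk samples.

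Of the 59 Rab genes, 41 reached 1 FPKM in at least 3 libraries and were tested, and 18 did not. In male controls the most abundant per length was Rab5c, a Rab of early endosomes, at 277 ± 10.2 (SD, n = 3) FPKM. It was followed by Rab7 at 223 ± 2.89 (SD, n = 3), Rab1b at 137 ± 3.96 (SD, n = 3) and Rab1a at 99.5 ± 1.34 (SD, n = 3), the latter pair being the Rabs that carry vesicles from the endoplasmic reticulum to the Golgi. Each of these 4 was separated from the next in every male control library. Together they made up 44.8% to 48.1% of the summed FPKM of all Rab genes in the 12 libraries. Below them neighbours overlapped in runs, such as Rab32, Rab8b, Rab2a, Rab7b, Rab10 and Rab31, whose means fell from 59.97 ± 1.49 (SD, n = 3) FPKM for Rab32 to 47.3 ± 0.965 (SD, n = 3) FPKM for Rab31. The lowest of the 41 was Rab43, of the Golgi, at 1.4 ± 0.139 (SD, n = 3) FPKM. The order was not the same in female controls, where Rab7 at 187 ± 8.61 (SD, n = 3) FPKM stood above Rab5c at 131 ± 5.05 (SD, n = 3) and Rab1b at 129 ± 3.79 (SD, n = 3). There the Rab5c libraries overlapped those of Rab1b.

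**Figure D1:**
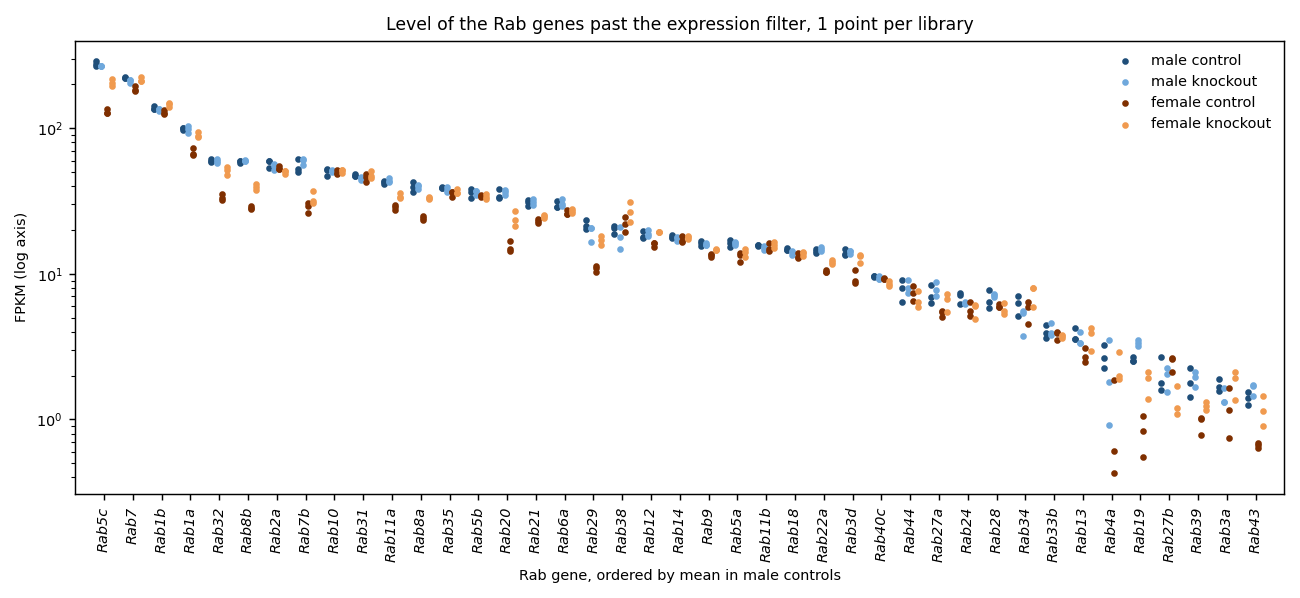
FPKM (log axis) of the 41 Rab genes that passed the filter, in order of their mean in male controls, with 1 point per library and 1 colour per group. Rab5c, Rab7, Rab1b and Rab1a stand above the rest, and female controls (dark brown) lie lowest for genes such as Rab5c, Rab32, Rab8b and Rab20.

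The summed FPKM of the Rab genes was 1526.9 to 1595.9 (male control), 1520.7 to 1537.0 (male knockout), 1126.2 to 1151.2 (female control) and 1356.0 to 1383.1 (female knockout). As a share of the FPKM of nuclear protein-coding genes the differences were smaller, with 0.465% to 0.474% and 0.46% to 0.467% in the male groups, and 0.434% to 0.436% (female control) and 0.455% to 0.461% (female knockout) in the others. Female controls were lowest on both scales, without overlap with another group. Rab5c alone held 17.6% to 18.1% (male control), 11.1% to 11.9% (female control) and 14.3% to 15.7% (female knockout) of the Rab total.

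Because the targeted gene belongs to the clock and the interferon-stimulated genes differed between the groups, the promoters were searched for elements of these systems and of lysosomal genes. RefSeq windows (build GRCm38.p6, 250 bases before to 50 after a start) were held for 48 of the 59 genes, in 60 windows. The E-box CACGTG, which clock factors can bind, was in the windows of 6 genes, namely Rab5a, Rab20, Rab21, Rab23, Rab24 and Rab27a, which is 10% of the Rab windows against 7.15% of all 32851. The CLEAR element of lysosomal genes, which is the E-box with GT before and AC after it, was in those of Rab5a, Rab21 and Rab24, 5.0% of the Rab windows against 0.326% of all. The interferon-stimulated response element core, GAAA and GAAA with any 2 letters between them, was in that of Rab19 alone, 1.67% against 3.44%, and the STAT site TTCNNNGAA in those of 5 genes, Rab11a, Rab15, Rab19, Rab25 and Rab34, 8.33% against 8.3%. Both strands were searched. The stretches from 100 bases before to 30 after the start are printed for the 3 CLEAR holders, for Rab20, the E-box holder that rose in female knockouts, and for Rab19, with the element in capitals. They lie at chr17:53479134-53479263 on the plus strand (Rab5a), chr10:115315562-115315691 on the minus strand (Rab21), chr13:55321951-55322080 on the minus strand (Rab24), chr8:11478611-11478740 on the minus strand (Rab20) and chr6:39381253-39381382 on the plus strand (Rab19).
Rab5a: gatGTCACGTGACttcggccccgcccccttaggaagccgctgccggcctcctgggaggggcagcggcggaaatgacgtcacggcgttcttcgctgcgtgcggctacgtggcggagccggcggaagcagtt
Rab21: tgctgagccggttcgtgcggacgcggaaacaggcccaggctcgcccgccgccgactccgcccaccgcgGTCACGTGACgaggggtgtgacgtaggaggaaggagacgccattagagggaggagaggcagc
Rab24: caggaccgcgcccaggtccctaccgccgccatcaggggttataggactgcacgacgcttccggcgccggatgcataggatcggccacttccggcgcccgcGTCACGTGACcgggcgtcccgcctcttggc
Rab20: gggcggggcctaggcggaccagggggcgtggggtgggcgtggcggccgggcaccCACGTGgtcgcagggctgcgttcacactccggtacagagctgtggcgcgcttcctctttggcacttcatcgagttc
Rab19: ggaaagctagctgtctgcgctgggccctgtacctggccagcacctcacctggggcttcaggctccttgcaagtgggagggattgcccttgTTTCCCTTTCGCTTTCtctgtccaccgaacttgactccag
In Rab19 the capitals hold 2 overlapping copies of the core, read on the minus strand. A match describes the letters of the window and not the binding of a factor. Among these genes the 3 with the CLEAR element were not called in female knockouts as deposited, with log2 changes of 0.09 for Rab5a, 0.10 for Rab21 and 0.00 for Rab24. Median-ratio scaling of the libraries called Rab21 higher (0.13, limma adjusted p = 0.0454). Reads of Rab24 cannot be told apart from those of Prelid1, which overlaps it on the other strand.

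In female cultures many abundant Rab genes were higher in the knockout libraries than in the controls. Changes are differences of log2(FPKM + 1), which understate those of low genes, and a gene was called at a limma p under 0.05 after Benjamini-Hochberg adjustment over all genes tested. Limma called 17 Rab genes higher and 2 lower in female knockouts than in female controls, and 22 were not called. The 19 calls are 46.3% of the 41 tested, against 49.8% of all 12102 genes tested, so the share of genes called is near the background. The direction was uneven, since all genes split into 24.9% called higher and 24.9% called lower. The median log2 change of the tested Rab genes was 0.20, and that of all genes tested was -0.01. All 19 called genes had the same sign in each of the 3 batches. They were called on these same libraries, so the shared sign is not separate support. Of the 41, 23 (56.1%) had groups without overlap, against 58.5% of all genes tested. The counts depend on how the libraries are scaled. With every library brought to the same summed FPKM of nuclear protein-coding genes, 10 Rab genes were called higher and 12 lower, Rab6b among the latter, which passes the filter only at that scaling. Scaled to the reads assigned to genes they were 12 and 3, with quantile normalization 14 and 4, and with limma voom on the reads 13 and 3. Median-ratio scaling kept 18 of the 19 calls and lost Rab40c, and Rab7b, Rab21 and Rab3a were called higher in addition. The Rab median stayed above the median of all genes by 0.119 to 0.219 across the 6 scalings. Called higher under all 6 were 10 genes, Rab5c, Rab1a, Rab32, Rab8b, Rab8a, Rab20, Rab29, Rab3d, Rab19 and Rab43, and called lower under all 6 was Rab27b. Rab19 and Rab43 were below 1 FPKM in at least 2 of 3 female controls, so they passed the filter through the other groups.

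**Figure D2:**
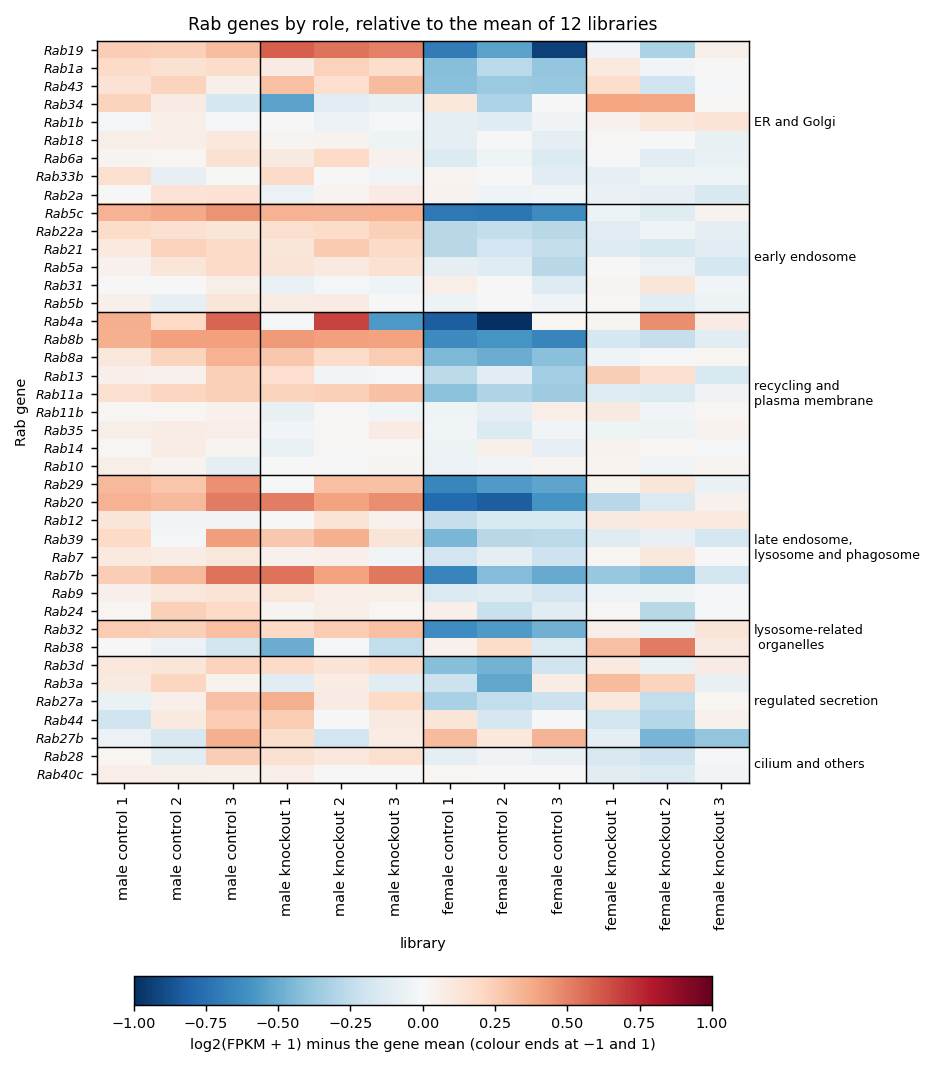
Level of the 41 tested Rab genes in each library as log2(FPKM + 1) minus the mean of the gene over 12 libraries, grouped by the compartment of the encoded protein. Female controls are the bluest columns for Rab5c, Rab8b, Rab20, Rab29 and Rab32. Female knockouts lie between them and the male libraries for these genes except Rab29, whose female and male knockouts overlap. Genes such as Rab10, Rab14 and Rab31 are pale throughout.

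Among the Rabs of early endosomes, which receive cargo taken up at the cell surface, 2 of 6 tested genes were called higher in female knockouts. None of these 6 was called lower at the scaling as deposited, where 24.9% of all genes were called higher and 24.9% lower. FPKM of Rab5c was 269, 274 and 288 (male control), 268, 267 and 269 (male knockout), 128, 127 and 137 (female control) and 204, 194 and 217 (female knockout). Female controls were lowest and female knockouts lay between them and the male libraries, with no overlap between these 3. Rab5c rose 1.57-fold in female knockouts, a log2 change of 0.64 ± 0.05 (limma SE, adjusted p = 1.43e-06). Its close relatives Rab5a and Rab5b, which share its role in endosome fusion, had log2 changes of 0.09 ± 0.06 (limma SE, adjusted p = 0.268) and -0.02 ± 0.05 (limma SE, adjusted p = 0.823). Rab5b was called lower after quantile normalization (-0.16, limma adjusted p = 0.0297) and on nuclear protein-coding genes (-0.20, 0.00725). The log2 ratio of Rab5c to Rab5b, which 1 scaling factor per library does not alter, was 1.93 ± 0.07 (SD, n = 3) in female controls and 2.59 ± 0.08 in female knockouts, without overlap, and the exact permutation p was 0.1, the smallest possible. Rab22a, a Rab of early endosomes and recycling, had an FPKM of 14.7, 14.3 and 14 (male control), 14.5, 14.7 and 15.3 (male knockout), 10.4, 10.7 and 10.4 (female control) and 11.8, 12.4 and 12 (female knockout). Its female groups did not overlap and its log2 change of 0.19 ± 0.04 (limma SE, adjusted p = 0.0022) was not called at 3 of the other 5 scalings and was 0.01 on nuclear protein-coding genes. Rab21 and Rab31, of the same compartment, were not called as deposited, with log2 changes of 0.10 and 0.06. With median-ratio scaling Rab21 was called higher (0.13, limma adjusted p = 0.0454).

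Rabs of recycling endosomes and of transport to the plasma membrane gave 4 rises and no fall in females among 9 tested genes at the scaling as deposited. There 24.9% of all genes were called higher and 24.9% lower. Rab8b, which takes part in vesicle delivery to the plasma membrane, had an FPKM of 57.6, 59.96 and 59.8 (male control), 60.7, 59.9 and 59.6 (male knockout), 28.4, 29.5 and 28 (female control) and 39.5, 38 and 41.4 (female knockout). Its relative Rab8a had an FPKM of 36.3, 39.2 and 42.9 (male control), 40.5, 38.2 and 40.04 (male knockout), 24.3, 23.5 and 24.8 (female control) and 32.5, 33 and 33.9 (female knockout). For both genes every female control lay below every female knockout, and these lay below every male library. The log2 change in female knockouts was 0.46 ± 0.04 (limma SE, adjusted p = 4.54e-06) for Rab8b and 0.44 ± 0.06 (limma SE, adjusted p = 6.93e-05) for Rab8a. The pair moved alike in females, the difference of their log2 ratio being 0.01, whereas Rab8b fell short of Rab8a by 0.34 between female and male controls (exact permutation p = 0.1, 0.176 after adjustment over 44 such tests). Rab11a, the Rab of slow recycling, had an FPKM of 41.1, 43 and 43.5 (male control), 43, 43.6 and 45.3 (male knockout), 27.5, 29.7 and 28.6 (female control) and 33.9, 33.1 and 35.9 (female knockout). The 4 groups fell into the same order, and the log2 change in female knockouts was 0.25 ± 0.04 (limma SE, adjusted p = 0.000768). At the nuclear protein-coding scaling it was 0.07 (adjusted p = 0.156). Rab11b, its near copy, was not called, with a log2 change of 0.05 ± 0.05 (limma SE, adjusted p = 0.416), and the pseudogene Rab11b-ps2, at 11.7 to 17.7 FPKM, can share its reads. Rab13, a Rab of transport to cell junctions and the surface, had an FPKM of 3.58, 3.56 and 4.22 (male control), 3.97, 3.34 and 3.37 (male knockout), 2.66, 3.12 and 2.49 (female control) and 4.23, 3.93 and 2.97 (female knockout). Its female groups overlapped at female knockout replicate 3. The log2 change was 0.32 ± 0.11 (limma SE, adjusted p = 0.0297), and it was no longer called at 3 of the other 5 scalings or without female control replicate 1 (0.30, adjusted p = 0.0748), female control replicate 3 (0.27, adjusted p = 0.0994), female knockout replicate 1 (0.24, adjusted p = 0.115) or female knockout replicate 2 (0.28, adjusted p = 0.0908). Rab4a, of fast recycling, spread widely, with FPKM of 2.65, 2.26 and 3.26 (male control), 1.81, 3.52 and 0.912 (male knockout), 0.605, 0.426 and 1.88 (female control) and 1.89, 2.91 and 2.0 (female knockout). It had the largest log2 change of the tested Rab genes in females, 0.79 ± 0.31 (limma SE, adjusted p = 0.0559), which did not pass as deposited. Some alternatives called it higher, such as voom (1.43, limma adjusted p = 0.0371) and a pseudocount of 0.1. Rab4a entered the tests only through the groups in which it was higher. Rab10, Rab14 and Rab35 had log2 changes of 0.03, 0.04 and 0.04 and were not called as deposited. On nuclear protein-coding genes they were called lower, with -0.16, -0.14 and -0.14 (limma adjusted p = 0.0335, 0.0254 and 0.026).

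Of the Rabs of late endosomes, lysosomes and phagosomes, 5 of 8 tested genes were called higher in female knockouts at the scaling as deposited. None of the 8 was called lower there, where 24.9% of all genes were called higher and 24.9% lower. Of these 5, only Rab20 and Rab29 were called higher under all 6 scalings. FPKM of Rab7 was 223, 219.9 and 226 (male control), 216, 216 and 205 (male knockout), 183, 197 and 181 (female control) and 212, 225 and 209.7 (female knockout). Female controls were lowest, and female knockouts overlapped both male groups. The log2 change of 0.21 ± 0.04 (limma SE, adjusted p = 0.00274) corresponded to a ratio of 1.15. This rise was not called at 4 of the other 5 scalings, with log2 changes of 0.10 on assigned reads and with voom, 0.03 after quantile normalization and 0.02 on nuclear protein-coding genes. The processed pseudogene Rab7-ps1, at 15.2 to 24.4 FPKM, can share reads with it. Rab29, a Rab of the Golgi and lysosomes that works with the kinase LRRK2, had an FPKM of 21.2, 20.4 and 23.3 (male control), 16.7, 20.7 and 20.6 (male knockout), 10.2, 11 and 11.3 (female control) and 17.1, 18.3 and 15.9 (female knockout). Female controls were lowest, and female knockouts overlapped male knockouts but not male controls. The log2 change in female knockouts was 0.61 ± 0.08 (limma SE, adjusted p = 0.000138), a ratio of 1.58. Rab20, which acts in phagosome maturation, had an FPKM of 33.7, 33 and 38.1 (male control), 37.8, 35 and 36.6 (male knockout), 14.9, 14.4 and 16.9 (female control) and 21.4, 23.6 and 27.1 (female knockout). Its groups stood in the order female control, female knockout, male, with no overlap between these, and its log2 change in female knockouts was 0.61 ± 0.09 (limma SE, adjusted p = 0.000184). Rab12 and Rab9 rose by log2 changes of 0.28 ± 0.05 (limma SE, adjusted p = 0.00102) and 0.12 ± 0.04 (limma SE, adjusted p = 0.024), and Rab12 was lost at the nuclear protein-coding scaling alone among the 6. Rab9 was lost at 4 of the other 5 scalings, with a sign change to -0.06 on nuclear protein-coding genes, and also without female control replicate 3 (adjusted p = 0.0881), female knockout replicate 2 (0.0516) or female knockout replicate 3 (0.065). Rab7b, a Rab between late endosomes and the Golgi, had an FPKM of 49.98, 52.8 and 61.4 (male control), 61.6, 55.9 and 60.9 (male knockout), 26.2, 30.8 and 29.2 (female control) and 31.9, 30.8 and 36.9 (female knockout). Every female library lay below every male one, and the female groups met near 30.8. Its log2 change in female knockouts was 0.20 ± 0.09 (limma SE, adjusted p = 0.0837), and with batch as a replicate block it was called (adjusted p = 0.0493). It was also called higher with median-ratio scaling (0.23, limma adjusted p = 0.0482). Rab39, of late endosomes, had a log2 change of 0.21 ± 0.11 (limma SE, adjusted p = 0.142).

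Rab32 and Rab38 serve lysosome-related organelles such as melanosomes, and Rab38 is known to increase when mouse macrophages become osteoclasts. FPKM of Rab32 was 59.4, 58.9 and 61.7 (male control), 57.3, 59.4 and 61.5 (male knockout), 31.9, 33.3 and 35.4 (female control) and 51.9, 47.4 and 54.6 (female knockout). Female knockouts lay between female controls and all male libraries without overlap, with a log2 change of 0.60 ± 0.06 (limma SE, adjusted p = 7.74e-06), a ratio of 1.53. FPKM of Rab38 was 21.4, 20.5 and 18.7 (male control), 14.9, 21.1 and 17.8 (male knockout), 22.1, 24.4 and 19.4 (female control) and 26.6, 31.1 and 22.8 (female knockout). The female groups overlapped, and the log2 change was 0.27 ± 0.13 (limma SE, adjusted p = 0.109). With the batch as a replicate block it was called (adjusted p = 0.0422). Thus Rab32 was called and Rab38 was not, but the log2 ratio of Rab32 to Rab38 differed between the female groups by 0.33 with overlap (exact permutation p = 0.2), so a difference between the pair was not shown.

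Rabs of regulated secretion split in female knockouts, with 1 rise and 1 fall among 5 tested genes at the scaling as deposited. There 24.9% of all genes were called higher and 24.9% lower. Rab3d had an FPKM of 13.5, 13.6 and 14.8 (male control), 14.4, 13.7 and 14.3 (male knockout), 9.0, 8.7 and 10.7 (female control) and 13.4, 11.8 and 13.2 (female knockout). Female controls were lowest and female knockouts lay just below the male libraries, without overlap. The log2 change in female knockouts was 0.40 ± 0.07 (limma SE, adjusted p = 0.000845). Rab27a, which docks secretory lysosomes and exosomes at the plasma membrane, had an FPKM of 6.27, 6.89 and 8.33 (male control), 8.75, 7.08 and 7.76 (male knockout), 5.08, 5.43 and 5.58 (female control) and 7.22, 5.43 and 6.75 (female knockout). The female groups overlapped at female knockout replicate 2, and the log2 change was 0.22 ± 0.11 (limma SE, adjusted p = 0.111). FPKM of its paralogue Rab27b was 1.77, 1.59 and 2.7 (male control), 2.26, 1.54 and 2.04 (male knockout), 2.61, 2.11 and 2.66 (female control) and 1.71, 1.09 and 1.2 (female knockout). Every female knockout lay below every female control. The male libraries, at 1.54 to 2.7 FPKM, overlapped both female groups, and female knockout replicates 2 and 3 lay below every male library. Rab27b was the only tested Rab gene besides Rab40c to be called lower as deposited. It had a ratio of 0.543 and a log2 change of -0.57 ± 0.15 (limma SE, adjusted p = 0.00894), and it was called lower under all 6 scalings. The log2 ratio of Rab27a to Rab27b was 1.13 ± 0.21 (SD, n = 3) in female controls and 2.29 ± 0.20 in female knockouts, without overlap (exact permutation p = 0.1, the smallest possible). Rab44, a large Rab known to restrain osteoclast differentiation in mice, had an FPKM of 6.36, 8.02 and 9.05 (male control), 9.08, 7.42 and 7.97 (male knockout), 8.2, 6.5 and 7.42 (female control) and 6.44, 5.93 and 7.68 (female knockout). All 4 groups overlapped, and its log2 change in female knockouts was -0.13 ± 0.12 (limma SE, adjusted p = 0.426). On nuclear protein-coding genes Rab44 was called lower, with -0.29 (limma adjusted p = 0.0479). Rab3a, the Rab of synaptic vesicles, had an FPKM of 1.66, 1.9 and 1.57 (male control), 1.31, 1.64 and 1.32 (male knockout), 1.15, 0.745 and 1.64 (female control) and 2.12, 1.91 and 1.37 (female knockout), with a log2 change of 0.37 ± 0.15 (limma SE, adjusted p = 0.056). With median-ratio scaling Rab3a was called higher (0.39, limma adjusted p = 0.0482).

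**Figure D3:**
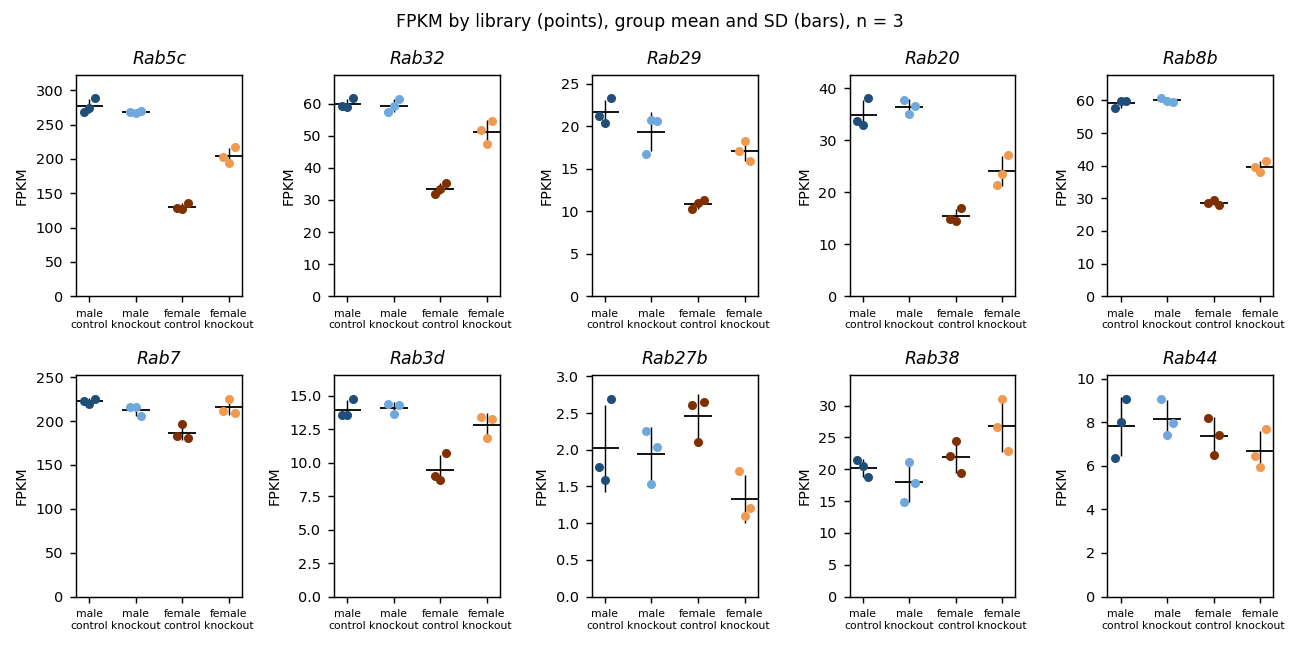
FPKM of 10 Rab genes in every library (points), with the mean and SD of each group of 3 (black), on axes from 0. Rab5c, Rab32, Rab20 and Rab8b rise from female control to female knockout to the male groups, Rab27b is lowest in female knockouts at 1.09 to 1.71 FPKM, and the groups of Rab44 overlap.

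Of the Rabs of the endoplasmic reticulum and Golgi, 4 of 9 tested genes were called higher in female knockouts at the scaling as deposited. None of the 9 was called lower there, where 24.9% of all genes were called higher and 24.9% lower. Of the 4, Rab19 and Rab43 passed the filter through groups in which they were higher, so their count is not support. A filter of 5 FPKM left both untested. FPKM of Rab1a was 101, 98 and 99.99 (male control), 93, 103 and 99.5 (male knockout), 65.1, 72.9 and 66.9 (female control) and 94.4, 86.5 and 87.9 (female knockout). That of Rab1b was 135, 142 and 135 (male control), 136, 131 and 135 (male knockout), 128, 125 and 133 (female control) and 140.5, 147 and 150.05 (female knockout). The female groups did not overlap for either gene. The log2 change was 0.39 ± 0.05 (limma SE, adjusted p = 0.000151) for Rab1a and 0.18 ± 0.04 (limma SE, adjusted p = 0.00358) for Rab1b, and the latter was lost at 4 of the other 5 scalings, with a sign change to -0.01 after quantile normalization and on nuclear protein-coding genes. Rab19, a little studied Rab of the Golgi, was low, with an FPKM of 2.54, 2.52 and 2.69 (male control), 3.5, 3.34 and 3.21 (male knockout), 0.834, 1.05 and 0.556 (female control) and 1.92, 1.39 and 2.1 (female knockout). The 4 groups did not overlap, in the order female control, female knockout, male control, male knockout, and the log2 change in female knockouts was 0.63 ± 0.11 (limma SE, adjusted p = 0.000848). Rab43, of the Golgi, was below 1 FPKM in all 3 female controls, so it could pass the filter only through the other groups, and it had a log2 change of 0.37 ± 0.10 (limma SE, adjusted p = 0.0107). FPKM of Rab34, which positions lysosomes and takes part in cilium formation, was 7.06, 6.3 and 5.14 (male control), 3.75, 5.36 and 5.54 (male knockout), 6.42, 4.55 and 5.91 (female control) and 8.05, 7.99 and 5.95 (female knockout). It was not called in females, with a log2 change of 0.33 ± 0.16 (limma SE, adjusted p = 0.107). Rab2a, Rab6a, Rab18 and Rab33b, which act in the Golgi and in the endoplasmic reticulum, had log2 changes of -0.09, 0.04, 0.04 and -0.03. None of them was called as deposited. Rab2a was called lower on assigned reads (-0.20, limma adjusted p = 0.00603) and after quantile normalization (-0.24, 0.00174). With voom (-0.20, 0.00471) and on nuclear protein-coding genes (-0.28, 0.000623) it was called lower too. On nuclear protein-coding genes Rab6a (-0.14, 0.0281) and Rab18 (-0.14, 0.0252) were also called lower. In the last role group Rab40c, part of a ubiquitin ligase, had an FPKM of 9.69, 9.63 and 9.55 (male control), 9.72, 9.22 and 9.26 (male knockout), 9.34, 9.26 and 9.26 (female control) and 8.5, 8.22 and 9.0 (female knockout). Its log2 change of -0.10 ± 0.04 (limma SE, adjusted p = 0.0492) was small. It was lost with the batch as a replicate block (adjusted p = 0.0634), with median-ratio scaling, with a pseudocount of 0.1, without the filter, and without any single library other than female knockout replicate 3, where the adjusted p was 0.0503 to 0.167. At the remaining scalings Rab40c stayed called lower, with larger changes. These were -0.20 on assigned reads (limma adjusted p = 0.00172) and -0.12 after quantile normalization (0.0347). With voom the change was -0.22 (0.0103), and on nuclear protein-coding genes -0.28 (0.000306). Rab28, a Rab of cilia, had a log2 change of -0.06 and was called lower only on nuclear protein-coding genes (-0.22, limma adjusted p = 0.0191).

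Markers of other cells moved with these changes, in a comparison in which 24.9% of all genes were called higher and 24.9% lower. Of the 14 tested monocyte and macrophage markers, 13 were called higher and 1 lower in female knockouts, with a summed FPKM of 12500 to 13700 against 7240 to 8970 in female controls, and 14 were lower in female than in male controls, where 30.7% of all genes were. Of the osteoclast markers 8 of 15 were called higher and 1 lower in female knockouts. All 20 interferon-stimulated genes were higher in female knockouts and lower in female than in male controls. The 5 tested B cell markers were lower in female knockouts, with a sum of 33.7 to 43.2 FPKM for the list against 70.2 to 92.5 in female controls. Neutrophil markers were lower in female cultures, with 6 of 9 called between controls and 7 of 9 between knockouts, and their sum was 3090 to 5230 FPKM in male controls, 3570 to 4450 in male knockouts, 2360 to 2540 in female controls and 2290 to 2960 in female knockouts. The part of these cells in the Rab values was not tested.

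In male cultures limma called no Rab gene in either direction, as it called 0.0% of all 12102 genes. At an unadjusted p under 0.05 there was 1 Rab gene of 41, against 822 of all genes, and with voom on the reads no Rab gene was called either. The groups of 4 Rab genes (9.76%) did not overlap, against 12.3% of all genes. The smallest p belonged to Rab19, with a log2 change of 0.28 ± 0.11 (limma SE, adjusted p = 0.708), higher in the 3 male knockouts than in the 3 male controls. Rab29 followed with -0.16 ± 0.08 (limma SE, adjusted p = 0.775) and Rab34 with -0.29 ± 0.16 (limma SE, adjusted p = 0.784), and the male groups of both overlapped. Rab5c changed by -0.05 ± 0.05 (limma SE, adjusted p = 0.916), with a 95% interval of -0.15 to 0.06, and Rab7 by -0.07 ± 0.04 (limma SE, adjusted p = 0.827), with an interval of -0.17 to 0.03. Rab32 changed by -0.01 ± 0.06 (limma SE, adjusted p = 0.985), with an interval of -0.14 to 0.11, and Rab8b by 0.02 ± 0.04 (limma SE, adjusted p = 0.958), with an interval of -0.07 to 0.11. A p above the threshold does not show equal levels.

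**Figure D4:**
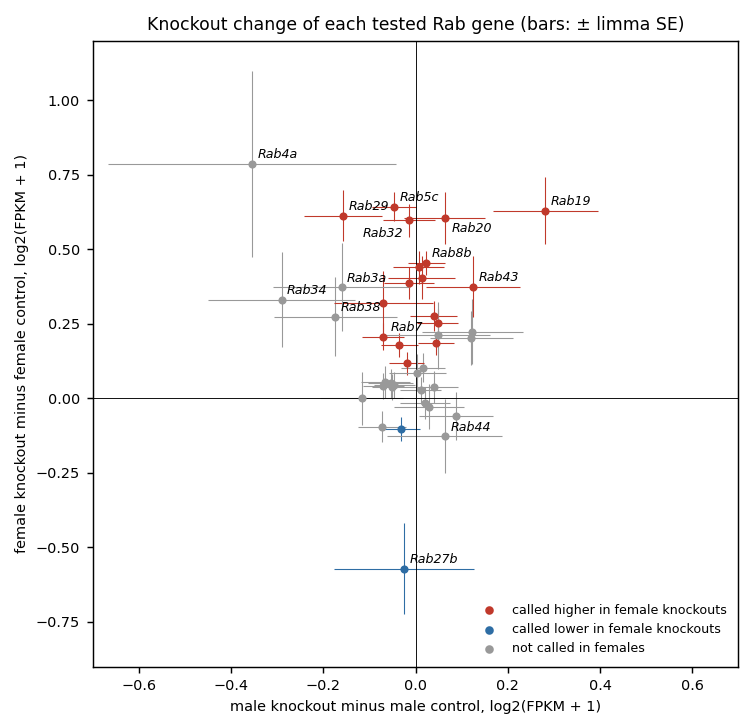
Log2 change of each tested Rab gene in males (horizontal) and females (vertical), knockout minus control, with bars of ± 1 limma standard error. Most called genes (red) lie near 0 horizontally and between 0.12 and 0.64 vertically, Rab27b lies at -0.57 vertically, and the 2 axes rest on separate libraries.

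The difference between the female and the male knockout effect was called for 12 Rab genes, all higher in females, which is 29.3% of those tested, against 34.6% of all genes. The background splits into 17.9% called higher and 16.7% called lower, and limma called 0 Rab genes lower. At an unadjusted limma p under 0.05 there were 20 of the 41 Rab genes, against 5425 of all 12102 genes. Of the 20, Rab27b alone had a negative difference, and voom called 1 Rab gene lower. The median Rab difference was 0.14, that of all genes -0.01. Rab29 had a log2 difference of 0.77 ± 0.12 (limma SE, adjusted p = 0.00062), Rab5c of 0.69 ± 0.07 (limma SE, adjusted p = 2.82e-05) and Rab32 of 0.61 ± 0.08 (limma SE, adjusted p = 0.000186). The values for Rab8b and Rab8a were 0.43 ± 0.06 (limma SE, adjusted p = 0.000189) and 0.43 ± 0.08 (limma SE, adjusted p = 0.0016). These 5 and Rab20 were called under all 6 scalings. On nuclear protein-coding genes 7 Rab genes were called higher and 6 lower, and the Rab median was -0.03, so the direction of the group as a whole flips there, while the median of all genes was lower still, at -0.17. On assigned reads the counts were 9 and 2 and with voom 10 and 1. Median-ratio scaling kept all 12 calls, and Rab9, Rab22a and Rab34 were called higher in addition. Rab27b had a difference of -0.55 ± 0.21 (limma SE, adjusted p = 0.0702), and with batch as a replicate block it was called, as was Rab38 (adjusted p = 0.0324 and 0.0331).

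Among controls, most Rab genes were lower in female than in male cultures. Limma called 26 Rab genes lower and 0 higher, with 0 higher at an unadjusted p under 0.05 as well, which is 63.4% of those tested against 60.3% of all genes, which split into 29.5% higher and 30.7% lower. The median log2 difference was -0.26, and that of all genes 0.00. For 27 Rab genes (65.9%) the groups did not overlap, against 64.9% of all genes. Scaling altered this split as well. On nuclear protein-coding genes 16 were higher and 14 lower, on assigned reads 7 and 16, after quantile normalization 6 and 21 and with voom 9 and 16. Median-ratio scaling kept all 26 calls and gained none. The Rab median on nuclear protein-coding genes was 0.05 where that of all genes was 0.28. Called lower under all 6 were 14 genes. Of these, Rab4a, Rab19, Rab39 and Rab43 were below 1 FPKM in at least 1 female control and passed the filter through groups in which they were higher, so their count is not support, and a filter of 5 FPKM left all 4 untested. Beyond the 14, 3 genes called lower, Rab6a, Rab18 and Rab35, were called higher under at least 1 other scaling. Rab8b was lowest relative to males by p, with a log2 difference of -1.02 ± 0.04 (limma SE, adjusted p = 2.79e-09), a ratio of 0.484. Rab5c differed by -1.08 ± 0.05 (limma SE, adjusted p = 8.16e-09), Rab32 by -0.82 ± 0.06 (limma SE, adjusted p = 2.52e-07), Rab20 by -1.13 ± 0.09 (limma SE, adjusted p = 6.6e-07) and Rab11a by -0.56 ± 0.04 (limma SE, adjusted p = 9.77e-07). All 5 are among the 14. By compartment, all 8 tested Rabs of late endosomes, lysosomes and phagosomes were called lower, with 4 of 6 of early endosomes, 6 of 9 of recycling and the plasma membrane, 5 of 9 of the endoplasmic reticulum and Golgi, 1 of 2 of lysosome-related organelles, 2 of 5 of secretion and 0 of 2 of the rest. Of those 8, Rab20, Rab29, Rab7b and Rab39 were called lower under all 6 scalings, while Rab7, Rab9, Rab12 and Rab24 had a positive log2 difference on nuclear protein-coding genes and were not called there. Rab24 was the exception among the 26 in not having the same sign in all 3 batches.

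Among knockouts 16 Rab genes were lower and 3 higher in female than in male cultures, 46.3% of those tested against 33.5% of all genes, which split into 20.4% lower and 13.1% higher. The median log2 difference was -0.13, and that of all genes -0.02. For 23 Rab genes (56.1%) the groups did not overlap, against 48.9% of all genes. The 3 higher genes were Rab38 with a log2 difference of 0.56 ± 0.13 (limma SE, adjusted p = 0.00815), Rab34 with 0.51 ± 0.16 (limma SE, adjusted p = 0.0309) and Rab1b with 0.12 ± 0.04 (limma SE, adjusted p = 0.0373), and each was called higher under all 6 scalings. Rab38 kept its call without any single library. Rab34 lost it without male knockout replicate 1, female knockout replicate 1 or female knockout replicate 2 (adjusted p = 0.0976 to 0.121). Rab1b lost it without any of the 3 male knockouts, female knockout replicate 2 or 3, or female control replicate 1 (adjusted p = 0.0502 to 0.117), and with only the groups compared (adjusted p = 0.0699). Both were also lost without the filter. The lowest by p were Rab8b with -0.59 ± 0.04 (limma SE, adjusted p = 6.67e-06), Rab7b with -0.82 ± 0.09 (limma SE, adjusted p = 6.8e-05), Rab5c with -0.39 ± 0.05 (limma SE, adjusted p = 0.000159), Rab11a with -0.35 ± 0.04 (limma SE, adjusted p = 0.000198) and Rab22a with -0.28 ± 0.04 (limma SE, adjusted p = 0.000341). All 5 were called lower under all 6 scalings. Without female knockout replicate 2, 10 genes were lower. With the batch as a replicate block Rab9 and Rab40c were lost (adjusted p = 0.0575 and 0.0537). On nuclear protein-coding genes the counts were 8 higher and 8 lower, on assigned reads 7 and 9, after quantile normalization 5 and 11 and with voom 7 and 10. Median-ratio scaling lost Rab9 and Rab40c and gained no Rab gene. The comparisons between the sexes share libraries with the knockout comparisons, so values are set side by side only. Between knockouts the markers differed as well, where 13.1% of all genes were higher and 20.4% lower. In female knockouts 10 of 15 osteoclast markers were higher and 0 lower, 2 of 14 monocyte and macrophage markers were higher and 9 lower, 7 of 9 neutrophil markers were lower and all 20 interferon-stimulated genes were lower than in male knockouts. Their part in the Rab differences was not tested.

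**Figure D5:**
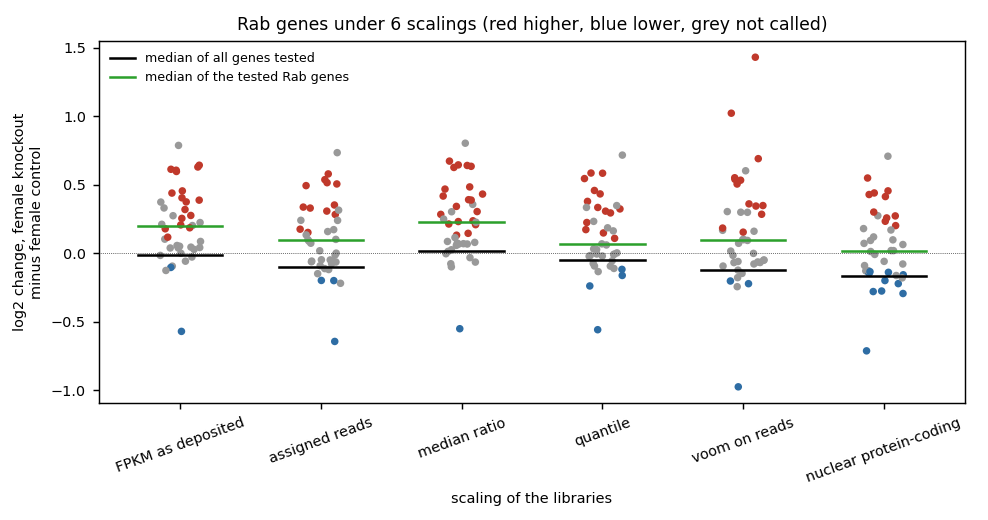
Log2 change of each Rab gene between female knockouts and female controls under 6 scalings of the libraries, red for called higher, blue for called lower and grey for not called, with the median of all genes (black) and of the tested Rab genes (green). The green line lies above the black one under each scaling, by 0.119 to 0.219. Blue points number 2 as deposited and are most numerous on nuclear protein-coding genes. Rab6b, which passes the filter only at that scaling, is not plotted.

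The totals behind the scalings differed between the groups. The assigned reads were 0.936 to 0.948 (female control), 1.007 to 1.017 (female knockout) and 1.075 to 1.105 (male) of the denominator of the FPKM. Mitochondrial mRNA held 6.71% to 7.4% (female control), 4.68% to 5.56% (female knockout) and 3.09% to 3.79% (male) of all FPKM. The median log2 change of all genes in female knockouts was -0.12 with voom and -0.17 on nuclear protein-coding genes, against -0.01 as deposited. Ratios of 2 paralogues within a library are not altered by 1 scaling factor per library, although quantile normalization alters them, and 11 such pairs, picked after the values were known, gave 44 tests, of which the smallest adjusted p was 0.176. In females the log2 ratio of Rab5c to Rab5a was 0.55 higher in knockouts and that of Rab1a to Rab1b 0.21 higher, both without overlap. The ratio of Rab22a to Rab31 was 0.15 higher, again without overlap. The ratio of Rab11a to Rab11b was 0.21 higher and that of Rab19 to Rab43 0.39 higher, with overlap.

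The genes that load, switch and read Rab proteins were counted in lists chosen by function, first at the scaling as deposited, where 24.9% of all genes were called higher and 24.9% lower in female knockouts and the median of all genes was -0.01. Of the 34 tested Rab GEFs, 14 were called higher and 1 lower in female knockouts, with a median log2 change of 0.14. Rab3il1, a GEF of the Rab8 group, had the smallest p, with 1.57 ± 0.304 and 4.95 ± 0.217 (SD, n = 3) FPKM in female controls and knockouts and a log2 change of 1.22 ± 0.08 (limma SE, adjusted p = 5.7e-07). Dennd1a, a GEF of Rab35, had a log2 change of 0.67 ± 0.06 (limma SE, adjusted p = 9.39e-06) and Dennd2a, of the same DENN domain family, one of 0.36 ± 0.07 (limma SE, adjusted p = 0.00113). Among the 32 tested Rab GAPs 8 were higher and 4 lower, with a median of 0.08. The smallest p values belonged to members of the TBC family of Rab GAPs, Tbc1d9 with a log2 change of 0.86 ± 0.05 (limma SE, adjusted p = 2.82e-07), Tbc1d13 with 0.33 ± 0.04 (limma SE, adjusted p = 9.47e-05) and Tbc1d10b with 0.31 ± 0.04 (limma SE, adjusted p = 0.000123). Of the 39 tested effectors 16 were higher and 2 lower, with a median of 0.13. Ankfy1, an effector of Rab5, changed by 0.58 ± 0.04 (limma SE, adjusted p = 5.49e-07), Rufy3 by 0.42 ± 0.05 (limma SE, adjusted p = 3.06e-05) and Rilpl2, which binds Rabs phosphorylated by LRRK2, by 0.42 ± 0.05 (limma SE, adjusted p = 3.83e-05). Of the 31 tested tethers and fusion proteins 13 were higher and 1 lower, with a median of 0.14. Dtnbp1, a subunit of BLOC-1, changed by 0.59 ± 0.04 (limma SE, adjusted p = 5.13e-07), Stx4a, a SNARE of the plasma membrane, by 0.44 ± 0.05 (limma SE, adjusted p = 2.45e-05) and Stx16, a SNARE of the Golgi, by 0.32 ± 0.05 (limma SE, adjusted p = 0.000192). The 9 genes of prenylation and recycling split into 2 higher and 2 lower, with a median of -0.02. Rabggtb, the catalytic subunit of the transferase that adds the lipid tail, fell from 29.1 to 21.2 FPKM, a log2 change of -0.44 ± 0.06 (limma SE, adjusted p = 0.000109). Rabac1, which helps release Rabs from GDI, rose by 0.38 ± 0.07 (limma SE, adjusted p = 0.000878), and Chml, which presents Rabs to the transferase, had a change of -0.31 ± 0.07 (limma SE, adjusted p = 0.00302). Between controls the same lists had 1 gene higher and 19 lower (GEFs), 10 and 11 (GAPs), 4 and 19 (effectors), 1 and 20 (tethers and fusion) and 2 and 2 (prenylation) in female cultures, where 29.5% of all genes were higher and 30.7% lower. These splits depend on the scaling. On nuclear protein-coding genes, in female knockouts, 4 GEFs were higher and 9 lower, with 3 and 9 GAPs, 9 and 8 effectors, 4 and 6 tethers and fusion proteins and 1 and 5 prenylation genes. The 5 medians there were -0.03, -0.07, -0.04, -0.04 and -0.18, so those of the first 4 lists changed sign, where the median of all genes was -0.17. Between controls 15 GEFs were higher and 9 lower at that scaling, with 17 and 3 GAPs, 17 and 8 effectors, 12 and 8 tethers and fusion proteins and 6 and 0 prenylation genes. In males no gene of these 5 lists was called, where limma called none of all genes.

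The 18 Rab genes below the filter reached at most 1.13 FPKM. They were Rab2b, Rab3b, Rab3c, Rab4b, Rab6b, Rab9b, Rab15, Rab17, Rab23, Rab25, Rab26, Rab30, Rab33a, Rab36, Rab37, Rab39b, Rab40b and Rab42. Several of them are known from neurons or epithelia, such as Rab3c, Rab6b, Rab17 and Rab25. No read of Rab3c was found in 12 libraries, where 3 reads would correspond to 0.00662 to 0.0168 FPKM. Rab9b had 2 reads in 1 library and Rab3b 7 reads in 3 libraries. Rab6b, the brain form of Rab6, had an FPKM of 0.602, 0.509 and 0.619 (male control), 0.832, 0.439 and 0.637 (male knockout), 1.13, 0.935 and 1.07 (female control) and 0.602, 0.74 and 0.435 (female knockout). Female controls were highest without overlap, and in a fit without the filter the log2 change was -0.37 in female knockouts (limma adjusted p = 0.0338) and 0.38 between female and male controls (0.0224). In that fit Rab26 was lower in female than in male cultures, by log2 differences of -0.16 among controls (adjusted p = 0.00962) and -0.15 among knockouts (adjusted p = 0.0347), at levels of 0.0 to 0.267 FPKM in the 12 libraries.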

How the data were processed

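The deposited table of the whole series holds a value per gene for 12 libraries of day 4 osteoclasts. Its unit is FPKM, made by the authors, with HISAT2 2.0.5, featureCounts 1.5.0-p3 and the build mm10 named in the submitters' processing notes. Table positions matched GENCODE M21 for 2 of 59 Rab genes and chromosomes for 59, so table coordinates are not used. The strand setting is not given in the sources used here, so overlapping genes, such as Rab24 and Prelid1, cannot be told apart. The table holds 55806 genes, and 1 emptied line was left out.

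FPKM times gene length gave whole reads within 0.01 for 100% of values, hence the depths, and the intervals given cover the spread between libraries. Replicate libraries had a chi-square per degree of freedom of 4.325 to 12.39 against sampling noise, and none was merged. Genes reaching 1 FPKM in 3 libraries (12102, of which 10390 are protein coding) were tested with limma 3.58.1 in R 4.3.3 on log2(FPKM + 1). The fit had 4 group means, a trend and 10.95 total degrees of freedom, with two-sided tests and Benjamini-Hochberg adjustment over all genes tested at 0.05. A log2 change on that scale understates the change of low genes, SE is the standard error of limma, and intervals are at 95%. Single values were tested with exact permutation tests in SciPy 1.17.1. Same-numbered libraries share a labelled batch, which pairs them by label, and their deviations correlated at a mean r of 0.021 (-0.118 to 0.092 over 18 pairs).

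Every Rab gene is accounted for by role. Values per library are given for Rab genes known from osteoclasts, for up to 5 called each way with the smallest p in each contrast, for the 3 smallest p in males, and for further genes picked after their values were seen. From each list of related genes up to 3 with the smallest p are named. The members, lists and tests were chosen with earlier results of these data known. The alternatives were other pseudocounts, filters, scalings, voom, array weights, the batch block, fits of the groups compared only, and leaving out each library, and the nuclear protein-coding scaling and the lists under each scaling were added after seeing the data. The scripts were tested on simulated data.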

Additional observations from a re-analysis of the deposited data

Results flagged for a closer look

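The knockout effect differed between the sexes for 12 Rab genes by the interaction term of the limma fit, adjusted over all genes tested. The female effect minus the male effect, on the log2(FPKM + 1) scale, was 0.69 for Rab5c, the Rab of early endosomes, 0.77 for Rab29 and 0.54 for Rab20, Rabs of lysosomes and phagosomes, 0.61 for Rab32, of lysosome-related organelles, and 0.43 for both Rab8a and Rab8b, of transport to the plasma membrane. These 6 were called under all 6 scalings. The difference was 0.40 for Rab1a, 0.39 for Rab3d, 0.28 for Rab7, 0.24 for Rab12, and 0.21 for both Rab1b and Rab11a, and each of these was lost under at least 1 scaling. The background for this comparison is 34.6% of all genes called. Per2 FPKM itself overlapped between the female groups (exact permutation p = 0.6) and did not between the male groups (exact permutation p = 0.1, the smallest possible). The female libraries also differed in interferon-stimulated genes, macrophage markers and the ratio of assigned reads to the FPKM denominator, and the part of these in the Rab differences was not tested.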

How the results depend on the processing

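Called Rab genes changed sign under at least 1 alternative for 2 of 19 in female knockouts (Rab1b and Rab9), 8 of 26 between controls (Rab5a, Rab6a, Rab7, Rab9, Rab12, Rab18, Rab24 and Rab35) and 2 of 19 between knockouts (Rab9 and Rab40c), and for 0 of 12 in the difference between the sexes. Of the recomputed values of the genes named by rule 786 kept their side of the threshold, 42 lost it and 4 gained it. Of the counts of Rab genes 189 stayed within 1.5 times the main count and 49 did not. Both tallies include fits without a library outside the comparison, which leave its log2 changes as they were. The second tally also takes in counts that were 0 and stayed 0, such as those in males. Most of the genes named by rule were picked for a small p, so the first tally does not measure how stable Rab genes in general are. In female knockouts 17 Rab genes were higher and 2 lower. The higher count became 10 on nuclear protein-coding genes, and the lower count became 12 there, 4 after quantile normalization and 1 with a pseudocount of 0.1, a filter of 5 FPKM, the replicate block, median-ratio scaling or only the groups compared. For the difference between the sexes, 12 higher and 0 lower, the higher count became 7 after quantile normalization and 7 on nuclear protein-coding genes. The lower count became 2 on assigned reads, 6 on nuclear protein-coding genes and 1 with voom, array weights or the replicate block. In female against male controls, 0 higher and 26 lower, the higher count became 1 without the filter, 7 on assigned reads, 6 after quantile normalization, 9 with voom and 16 on nuclear protein-coding genes, and the lower count became 16 on assigned reads, 16 with voom and 14 on nuclear protein-coding genes. In female against male knockouts, 3 higher and 16 lower, the higher count became 1 without the filter, 7 on assigned reads, 5 after quantile normalization, 7 with voom and 8 on nuclear protein-coding genes, and the lower count became 9 on assigned reads, 10 with voom and 8 on nuclear protein-coding genes. Beyond the different scale and the number of genes tested, the cause of these shifts was not tested.

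Without single libraries the counts were 16 to 19 higher and 1 to 2 lower in female knockouts, 10 to 15 and 0 to 1 for the difference between the sexes, 0 to 1 and 20 to 27 between controls, 1 to 3 and 10 to 16 between knockouts, and 0 to 0 in males. Without male control replicate 3, 1 gene was higher between controls and 1 lower for the difference between the sexes, as 1 was without male knockout replicate 2 or female knockout replicate 1. The replicate block lost Rab40c and gained Rab38 and Rab7b in female knockouts, gained Rab38 and Rab27b for the difference between the sexes, lost Rab9 and Rab40c between knockouts, and changed no other Rab call. Depth limits the lowest genes, since Rab19 had as few as 13 reads in a library and Rab4a as few as 14.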
